A study of Mus musculus with 8 samples.

Results

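Hemoglobin messages and the erythroid enzymes and membrane protein that go with them were followed here in the hippocampus of mice given benzo[*a*]pyrene (BaP). The 8 genes are the alpha-globin genes *Hba-a1* and *Hba-a2*, the beta-globin genes *Hbb-bs*, *Hbb-bt* and *Hbb-b2*, the heme synthesis genes *Alas2* and *Fech*, and *Slc4a1*. They were found on the array by symbol, through the RefSeq accession of each probe, and each had 1 probe, so that 8 of the 55681 probes and 8 of the 15112 named genes tested are described. The set was chosen by its log2 ratios in BaP-exposed against control mice on these same arrays. Differences between the groups in these genes are therefore given as a description, with no test.

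Adult male Muta Mouse animals, a transgenic mutation-reporter line (9 weeks of age), were gavaged on each of 3 days with BaP in olive oil, at 70 mg/kg bw a day, or with the oil alone (0 mg/kg bw). Hippocampus was collected 24 hr after the last dose from 4 mice of each group. Each mouse had its own Agilent 2-color array, all 8 on 1 slide. Mouse RNA carried Cy5 and a universal mouse reference RNA, the same on every array, carried Cy3, without a dye swap. The mice were killed by cardiac puncture under isoflurane and then cervical dislocation. No perfusion of the brain is described in the sources used here, so blood in the vessels may have been part of the sample. For mice 3 and 4 of each group, which lay in the second row of the slide, the title and the source name of the sample name opposite groups. The titles were used, since the animal numbers run with them. With the undisputed first row alone (2 mice of each group) the median log2 difference of the 8 genes was -0.81, with the second row alone it was -0.64, and with groups taken from the source names it was -0.07.

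Hemoglobin is built from alpha and beta chains, each holding a heme, and its messages are among the most abundant in young red cells. *Alas2* makes the first committed step of heme synthesis in the erythroid lineage and *Fech*, used by all cells that make heme, inserts the iron in the last step. *Slc4a1* encodes band 3, the anion exchanger of the red cell membrane. In whole tissue, fewer cells of a type and less RNA in each cell cannot be told apart. All 8 markers of hippocampal neurons were well above background on all 8 arrays. The probes of the 8 genes themselves carried the scanner software's flag for a signal well above background in Cy5 on all 8 arrays. Of the related genes on the array, 15 of 20 erythroid regulators and reticulocyte genes and 8 of 14 red cell membrane and skeleton genes reached that level on 4 arrays or more. Of all 55681 probes, 32624 did so and were tested. The related genes that did not included *Gata1*, *Klf1*, *Epb42* and *Rhag*, and those that did included *Tal1*, *Epor*, *Ank1* and *Sptb*. All were named here after their values were seen.

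Probe sequences show which end of each message was read, and they were at hand for 4 of the 8 genes. The *Hbb-bs* probe of 60 bases starts at base 5 of the transcript, and 46 of its bases lie in the RefSeq start window. Its first 30 bases are set here against the same place in *Hbb-bt*, because the paralogues behaved unlike in the ratio. Capitals mark the bases at which the genes differ, which number 6 in this stretch and 7 over the 45 bases that could be compared. The stretch lies on the minus strand of assembly GRCm38.p6 at chr7:103827895-103827924 for *Hbb-bs* and at chr7:103813889-103813918 for *Hbb-bt*.
Hbb-bs probe, first 30 bases: tttgcttctgaCATAgttgtgttgactCAc
Hbb-bt, same place: tttgcttctgaTTCTgttgtgttgactTGc
The *Hba-a2* probe reads the other end of its message. Capitals mark the polyadenylation signal in bases 26 to 55 of that probe. The *Hba-a1* probe lies in the coding sequence, and the *Alas2* probe begins in the last coding bases, where capitals mark the stop codon.
Hba-a2 probe, bases 26 to 55: tcttggtctttgAATAAAgcctgagtagga
Hba-a1 probe: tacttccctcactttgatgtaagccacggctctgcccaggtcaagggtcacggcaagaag
Alas2 probe, first 42 bases: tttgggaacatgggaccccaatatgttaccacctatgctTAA
How far a probe of 1 globin also binds the message of another was not measured, and the beta-globin haplotype of this mouse line is not given in the sources used here.

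The 120 bases before the transcript start are shown for 4 of the genes that were lower together, with *Hba-a2* left out because its window is nearly that of *Hba-a1*. RefSeq windows were matched for *Hba-a1*, *Hba-a2*, *Hbb-bs*, *Hbb-bt* and *Alas2*. Capitals mark 4 short motifs searched on both strands with overlapping matches kept. These were the core of the TATA box (TATAA), the box written CCAAT, the binding letters of erythroid Krüppel-like factors (CACCC) and the core of the site of GATA factors (GATAA).
Hba-a1, plus strand, chr11:32283552-32283671: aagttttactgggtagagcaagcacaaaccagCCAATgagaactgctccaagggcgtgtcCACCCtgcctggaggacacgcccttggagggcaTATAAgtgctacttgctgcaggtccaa
Hbb-bs, minus strand, chr7:103827929-103828048: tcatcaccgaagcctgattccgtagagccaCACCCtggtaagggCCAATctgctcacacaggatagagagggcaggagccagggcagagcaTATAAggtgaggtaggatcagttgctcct
Hbb-bt, minus strand, chr7:103813924-103814043: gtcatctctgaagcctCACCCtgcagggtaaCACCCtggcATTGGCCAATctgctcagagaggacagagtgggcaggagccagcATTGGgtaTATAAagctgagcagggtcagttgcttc
Alas2, plus strand, chrX:150547297-150547416: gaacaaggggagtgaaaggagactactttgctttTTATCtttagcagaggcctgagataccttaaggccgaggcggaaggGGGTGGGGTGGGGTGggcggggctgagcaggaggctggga
In the 250 bases before the start, all but one of these motifs were present in all 5 windows, the exception being CCAAT, which the window of *Alas2* did not hold. Over all 32851 RefSeq windows of that length, 22.8% held the letters of the TATA box, 33.8% held the CCAAT box, 52% held those of the Krüppel-like factors and 22.6% held those of the GATA factors. The windows of *Hba-a1* and *Hba-a2* shared an unbroken stretch of 297 of 300 bases, whereas those of *Hbb-bs* and *Hbb-bt* matched at 89 of these 120 bases (74.2%) when shifted by 1 base. A match of letters is a description and not a measured site.

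For all 5 globin genes and *Alas2*, the highest BaP-exposed mouse lay below the lowest control mouse, and for *Fech* and *Slc4a1* the groups overlapped. Values are log2 ratios of Cy5 over Cy3 after loess normalization. The median difference of the 8 genes, BaP minus Control, was -0.69, against -0.0043 over all 32624 tested probes. With the scanner software's processed signals it was -0.25. With median centring of the ratios in place of loess it was -0.22, against 0.17 over all tested probes. Over those probes, 2.54% lay lower without overlap of the groups, and 0.343% were lower by at least 1.5-fold.

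**Figure D1:**
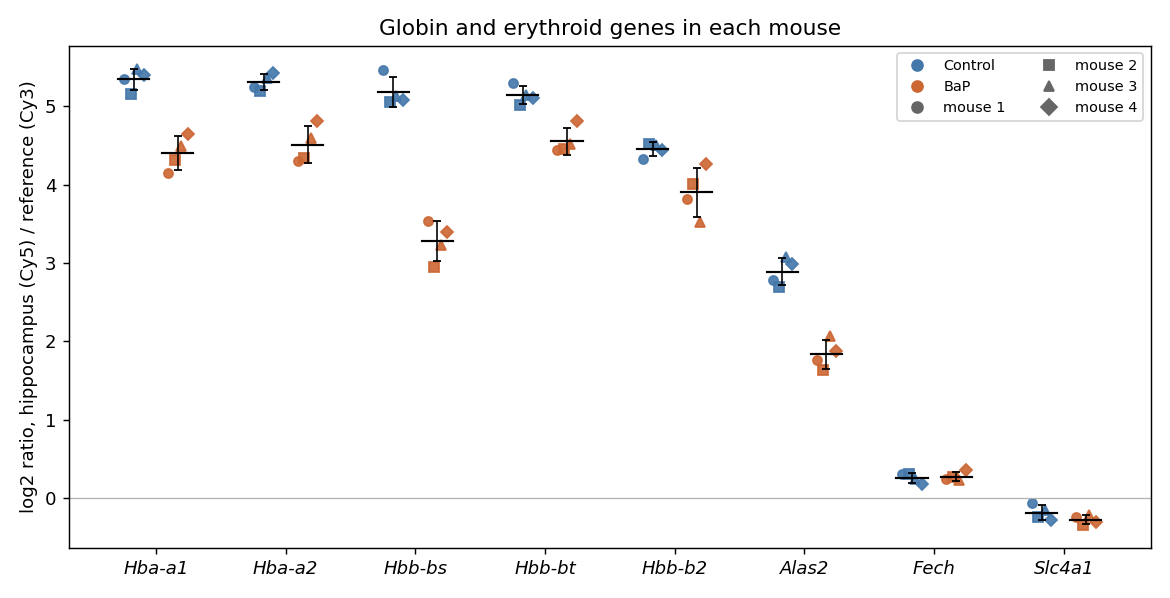
Log2 ratio of hippocampus over reference RNA (vertical axis) for each of the 8 genes in each mouse. Symbols give the mouse number, blue stands for Control and orange for BaP, and black lines give the mean and SD of 4 mice. The groups lie apart for the first 6 genes, and overlap for *Fech* and *Slc4a1*.

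Both alpha-globin probes were lower in BaP-exposed mice. The *Hba-a1* log2 ratio was 5.35, 5.15, 5.47 and 5.39 in control mice 1 to 4 and 4.15, 4.31, 4.49 and 4.65 in BaP mice 1 to 4. The *Hba-a2* log2 ratio was 5.25, 5.19, 5.36 and 5.42 in the control mice and 4.30, 4.34, 4.59 and 4.81 in the BaP mice. For both probes control mouse 2 was the lowest of its group and BaP mouse 4 the highest of its own, and the groups stayed apart by 0.51 and 0.38. The difference was -0.94 for *Hba-a1* (SE 0.12) and -0.80 for *Hba-a2* (SE 0.12), with n = 4 mice in each group. With median centring these differences were -0.53 and -0.31.

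Among the beta-globin probes, *Hbb-bs* differed most. The *Hbb-bs* log2 ratio was 5.46, 5.05, 5.13 and 5.08 in control mice 1 to 4 and 3.54, 2.95, 3.23 and 3.40 in BaP mice 1 to 4, a difference of -1.90 (SE 0.14). The gap between the lowest control mouse and the highest BaP mouse was 1.52, and BaP mouse 2 was the lowest of all. Its Cy3 spot was well above background on 2 of 8 arrays, and the scanner software's processed signals gave a difference of -0.26. For *Hbb-bt* the log2 ratio was 5.29, 5.02, 5.14 and 5.10 in the control mice and 4.44, 4.46, 4.52 and 4.80 in the BaP mice, a difference of -0.58 (SE 0.10). For *Hbb-b2* it was 4.33, 4.52, 4.51 and 4.44 against 3.82, 4.00, 3.52 and 4.26, a difference of -0.55 (SE 0.14). BaP mouse 4 was the highest of its group in both, and for *Hbb-b2* it came within 0.06 of the lowest control mouse. Gene-to-gene levels are not compared, because each probe binds with its own strength.

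The heme synthesis genes did not move alike. The *Alas2* log2 ratio was 2.79, 2.70, 3.08 and 2.99 in control mice 1 to 4 and 1.75, 1.64, 2.07 and 1.87 in BaP mice 1 to 4. The groups stayed apart by 0.63, with a difference of -1.05 (SE 0.12). Its Cy3 spot was well above background on 2 of 8 arrays, and processed signals gave -0.40 (SE 0.30). *Fech*, at the other end of the pathway, had a log2 ratio of 0.30, 0.31, 0.24 and 0.18 in the control mice and 0.24, 0.26, 0.23 and 0.36 in the BaP mice. The groups overlap, with BaP mouse 4 highest and control mouse 4 lowest, and the difference was 0.02 (SE 0.07), with its sign depending on the setting. *Slc4a1* lay at -0.07, -0.24, -0.16 and -0.29 in the control mice and -0.25, -0.34, -0.22 and -0.31 in the BaP mice, a difference of -0.09 (SE 0.08). Its Cy5 signal carried that flag but was low, at 104.5 to 175 scanner units over a local background of 67 to 71.

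For the globins and *Alas2* the difference was larger in Cy5 alone than in the ratio, and the reference channel was lower as well. In Cy5 alone, taken as log2 of the background-corrected signal relative to the array median, the difference was -2.02 for *Hbb-bs*, -1.50 for *Hba-a2*, -1.46 for *Hbb-bt*, -1.32 for *Hba-a1*, -1.28 for *Hbb-b2* and -1.17 for *Alas2*. The same 6 genes stayed without overlap in Cy5, where 2.14% of all tested probes lay lower without overlap. As uncorrected spot medians, *Hba-a2* gave 68772 to 99227 units in the control mice and 23047 to 41660 in the BaP mice, and *Hbb-bs* gave 2256 to 3440 against 468 to 849.5. *Fech* differed by 0.06 and *Slc4a1* by -0.11 in Cy5, and for both the groups overlapped. The median Cy5 difference of the 8 genes was -1.30.

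**Figure D2:**
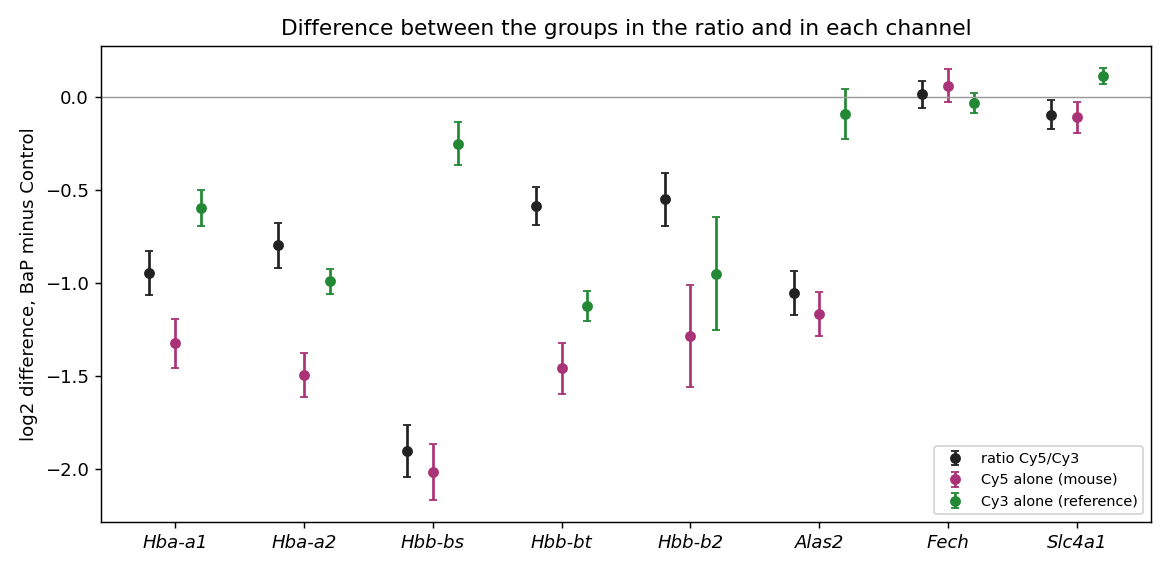
Log2 difference between the groups, BaP minus Control (vertical axis), for each gene in the ratio, in Cy5 alone and in Cy3 alone. Points are differences of means of 4 mice and bars are standard errors. For *Hba-a2*, *Hbb-bt* and *Hbb-b2* the reference channel differed by more than the ratio, and for *Hbb-bs* and *Alas2* by -0.25 and -0.09 (by -1.90 and -1.06 in processed Cy3 signals).

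Cy3 carried the same reference RNA on every array, and the probes of all 5 globins and *Alas2* nevertheless gave less uncorrected Cy3 signal on every BaP array than on any control array. In these unscaled units 9.82% of all tested probes lay lower without overlap, and the median Cy3 signal of an array was 101 to 110 units on the BaP arrays and 107.5 to 136 on the control arrays. For *Hbb-bs* (77 to 110 units against 61.5 to 70) and *Alas2* (74 to 117 against 68 to 70.5) these signals were near the background, and after normexp correction and scaling to the array median of these 6 the groups stayed apart for the other 4 globins. The *Hba-a2* spot gave 5713, 5068, 5289.5 and 5477 Cy3 units on the arrays of control mice 1 to 4 and 2402, 2627, 2568 and 2367 on those of BaP mice 1 to 4. The *Hbb-bt* spot gave 560, 427, 477 and 497 units on the control arrays and 198, 193, 207 and 193.5 on the BaP arrays. No array of either group came near the other group at these probes. In log2 of the corrected Cy3 signal relative to the array median, the difference was -1.12 for *Hbb-bt* (SE 0.08), -0.99 for *Hba-a2* (SE 0.07), -0.95 for *Hbb-b2* (SE 0.30) and -0.60 for *Hba-a1* (SE 0.10). Over all tested probes 0.469% lay lower in Cy3 without overlap, and the median Cy3 difference was 0.0095.

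A lower Cy3 signal by itself raises the ratio, but the size of the ratio difference also depended on the normalization. For *Hbb-bt* it was -0.58 with loess and -0.14 with median centring of the ratios. The part of each was not tested. The ratio that chose the genes contains Cy3, and so no p-value of the Cy3 difference is given for them. For *Hbb-bs* and *Alas2* the Cy3 difference was -0.25 (SE 0.12) and -0.09 (SE 0.13) with overlapping groups, but both spots were well above background in Cy3 on 2 arrays of 8. In the scanner software's processed Cy3 signals the difference was -1.90 for *Hbb-bs* and -1.06 for *Alas2*, without overlap of the groups, and *Alas2* gave 36.0 to 109.8 units on the control arrays and 18.0 to 33.5 on the BaP arrays. With normexp, the Cy3 difference was -0.03 for *Fech* and 0.11 for *Slc4a1*. The latter was higher on every BaP array, as were 2.02% of all tested probes. Outside the 8 genes, 845 probes had a mean log2 ratio of at least 4.17, that of the lowest globin. Those of them lower by 0.5 or more in Cy5 had a median Cy3 difference of -0.099. Those higher by 0.5 or more had one of 0.25. What lowered the Cy3 signal at the globin probes was not tested.

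**Figure D3:**
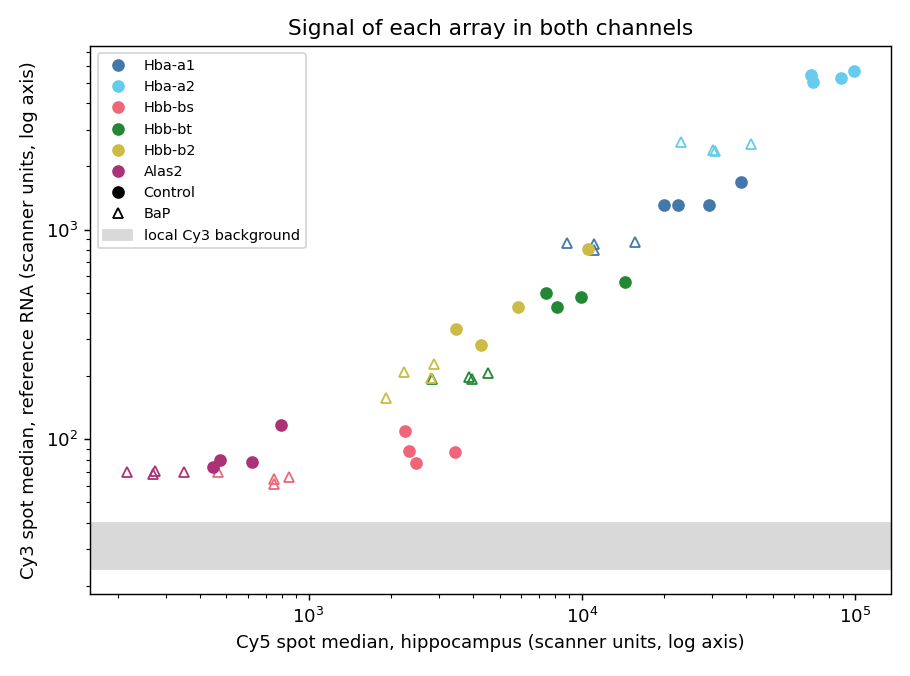
Uncorrected spot medians of the 5 globin probes and *Alas2* on each array, Cy5 of the mouse RNA on the horizontal axis and Cy3 of the common reference RNA on the vertical axis, both on log scales in scanner units. Filled circles are Control arrays, open triangles are BaP arrays, and the grey band is the range of the local Cy3 background. For *Hba-a2* the Cy3 values are 5068 to 5713 on the Control arrays and 2367 to 2627 on the BaP arrays, and *Hbb-bs* and *Alas2* lie close to the background.

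The size of the *Hbb-bs* difference beside the other globins depended on which channel was read. For each mouse, the mean of the other 4 globin probes was taken from the value of *Hbb-bs*. In the ratio this was 0.40, 0.09, 0.01 and -0.01 in control mice 1 to 4 and -0.64, -1.33, -1.05 and -1.24 in BaP mice 1 to 4, a difference of -1.19 between the groups (0.12 ± 0.19 against -1.06 ± 0.31, SD, n = 4). In Cy5 alone it was -3.00, -2.83, -2.89 and -2.60 in the control mice and -3.20, -3.69, -3.55 and -3.40 in the BaP mice, a difference of -0.63 (-2.83 ± 0.17 against -3.46 ± 0.21, SD, n = 4). The groups did not overlap in either reading, and the gap was smaller in Cy5. Against single paralogues in Cy5, the difference was -0.73 with *Hbb-b2*, -0.69 with *Hba-a1*, -0.56 with *Hbb-bt* and -0.52 with *Hba-a2*. In Cy3, where the *Hbb-bs* spot was well above background on 2 of 8 arrays, *Hbb-bs* minus the other globins differed by 0.67 with normexp and by -0.87 in processed signals, so that its direction is not settled.

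**Figure D4:**
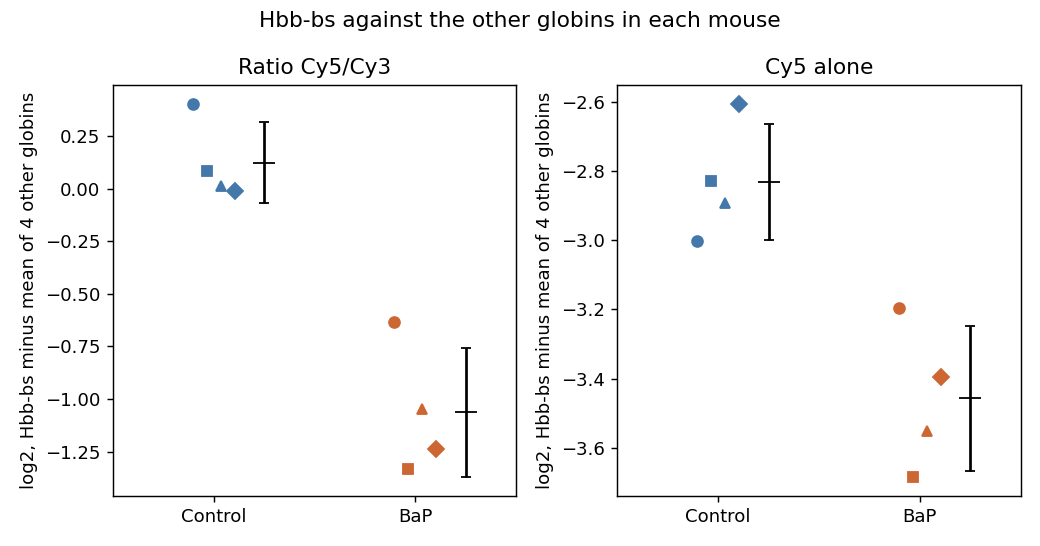
Log2 value of *Hbb-bs* minus the mean of the other 4 globin probes in each mouse (vertical axis; the panels have separate scales), from the ratio on the left and from Cy5 alone on the right. Symbols give the mouse number, and bars show the mean and SD of 4 mice. The BaP mice lie lower without overlap in both panels, by 1.19 in the ratio and by 0.63 in Cy5.

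With the scanner software's own background subtraction in place of normexp, the difference of *Hbb-bs* from its paralogues in the ratio was 0.22, the other way round. *Hbb-bs* itself then differed by -0.26, *Alas2* by -0.40, *Hbb-bt* and *Hbb-b2* by -0.20 each, *Hba-a2* by -0.74 and *Hba-a1* by -0.79. With median centring of normexp ratios in place of loess, the differences of the globins and *Alas2* ran from -0.14 for *Hbb-bt* and *Hbb-b2* to -1.57 for *Hbb-bs*. In these processed signals the Cy3 value of *Hbb-bs* was 38.2 to 88.2 units on the control arrays and 9.91 to 21.3 on the BaP arrays, and amounted to 0.639% to 1.2% of Cy5 on the former and 0.723% to 1.81% on the latter. Processed Cy5 alone gave -2.18 for *Hbb-bs* and -0.65 for its difference from the other globins, close to the values from normexp. The larger difference of *Hbb-bs* was thus found in both readings of Cy5, while in the ratio its direction was not the same in both. The processed signals differ in background correction and in dye normalization, and the part of each was not tested.

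Within the groups, some of the genes varied together from mouse to mouse. As a description over 8 arrays, with group means removed, the Pearson r of a gene with the mean of the other 7 was 0.88 for *Hbb-bt*, 0.77 for *Hba-a2*, 0.76 for *Hba-a1*, 0.37 for *Fech*, 0.29 for *Alas2*, 0.20 for *Hbb-bs*, 0.15 for *Slc4a1* and 0.09 for *Hbb-b2*. These genes share arrays, labeling and normalization. The mean ratio of the 5 globins ran from 4.99 to 5.14 in the control mice and from 4.01 to 4.38 in the BaP mice, with BaP mouse 4 highest among the latter.

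The other genes of the red cell and of heme were read from the fit over all probes. Of 97 tested genes in 12 lists of 129 genes, 0 passed the thresholds in the limma fit of the ratio (adjusted p of 0.05, fold of 1.5), which 0.0092% of all tested probes passed. At an unadjusted p of 0.05 there were 16, a mark that 8.77% of all tested probes met. In Cy5 alone 1 list gene passed the same thresholds, as did 0.0215% of all tested probes. The lowest median of a list was -0.20, that of the other globins. The lists were drawn up with earlier results of these arrays known, and their counts are descriptions.

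Among other globins, 3 of 9 genes were tested and all 3 had lower values in BaP-exposed mice, with a median of -0.20 (-0.039 with processed signals). *Ngb*, the neuronal globin, differed by -0.49 (SE 0.22, adjusted p = 0.569 from limma), but by 0.10 with processed signals. *Cygb*, which is found in fibroblast-like cells and some neurons, differed by -0.20, or by 0.10 with median centring, which moved the median of all tested probes to 0.17, and the embryonic *Hbb-bh1* by -0.05. In heme synthesis, transport and breakdown, 11 of 17 genes had higher and 6 lower values, with a median of 0.03 (0.032 to 0.064 without each mouse). The largest differences there were -0.40 for *Ppox*, which acts just before *Fech*, -0.38 for *Slc25a37*, the mitochondrial iron importer of erythroid cells, and 0.23 for *Abcb10*, a partner of that importer. *Slc25a37* was the only gene of that list with groups that did not overlap (SE 0.09, adjusted p = 0.449 from limma), 1 of 17, where over all tested probes 2.54% lay lower and 2.52% higher without overlap.

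The red cell membrane and skeleton list had 8 of 14 genes tested, 6 with higher values and a median of 0.09, which ran from 0.036 to 0.17 without each mouse in turn (lowest without control mouse 4, highest without control mouse 1) and was 0.21 with processed signals. Its largest differences were 0.58 for the glucose transporter *Slc2a1* (SE 0.14, adjusted p = 0.434 from limma), 0.28 for *Gypc* and 0.26 for *Tmod1*. Of the 21 erythroid regulators and reticulocyte genes 15 were tested, 9 with higher values and a median of 0.06 (0.041 to 0.11 without each mouse). *Zfpm1*, the cofactor of GATA factors, differed by 0.28, *Epor*, the erythropoietin receptor, by 0.27 and *Tfrc*, the transferrin receptor, by 0.25. For *Epor*, *Car1* and *Trim58* every BaP mouse was above every control mouse, as for 2.52% of all tested probes. In Cy5 alone *Epor* differed by 0.18, *Trim58* by 0.07 and *Car1* by -0.12, the other way, and *Car1* and *Trim58* were well above background on 6 and 5 arrays. Iron handling genes had a median of 0.09 over 11 tested (0.057 without BaP mouse 3, -0.037 in slide row 1), with *Hfe* at 0.34, *Ireb2* at 0.32 and *Ftl1* at -0.26. Without each mouse in turn *Hfe* ran from 0.11 to 0.64, *Gypc* from 0.057 to 0.47 and *Zfpm1* from 0.15 to 0.46, and *Ireb2* was 0.69 with processed signals.

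Markers of other blood cells had lower medians than the whole array in the ratio, and the groups overlapped for all tested platelet and lymphocyte markers and for 2 of 4 neutrophil markers. All 4 tested neutrophil markers of 9 had lower values (median -0.15), led by *S100a9* at -0.68 (SE 0.15, adjusted p = 0.38 from limma), with *Lcn2* at -0.21 and *Camp* at -0.09. *S100a9* had a log2 ratio of 1.27 ± 0.26 in control and 0.60 ± 0.22 in BaP mice (SD, n = 4), and neither it nor *Lcn2* had overlapping groups, as was the case in this direction for 2.54% of all tested probes. With processed signals the ratio of *S100a9* differed by -1.84 (SE 0.23), more than that of any globin. Its Cy5 spot was well above background on 7 of 8 arrays. In Cy5 alone with normexp it differed by -0.80, less than any globin, the smallest being -1.28 for *Hbb-b2*. Platelet markers had lower values in 4 of 5 tested genes of 8 (median -0.14), with *Pf4* at -0.37, *Treml1* at -0.22 and *Gp5* at -0.14. Lymphocyte markers had lower values in 4 of 4 tested genes of 9 (median -0.11), with *Cd3g* at -0.18, *Cd3e* at -0.15 and *Cd79b* at -0.07. The mean over each of these lists was -0.06 to 0.08 in control and -0.34 to -0.12 in BaP mice for neutrophils, -0.92 to -0.72 and -0.96 to -0.92 for platelets, and -2.503 to -2.08 and -2.60 to -2.38 for lymphocytes. Median centring moved the median of all probes by 0.17 and turned the neutrophil and lymphocyte medians to 0.03 and 0.15, which lie below that shift. The lymphocyte median was -0.01 without control mouse 1. The platelet median was -0.05 without BaP mouse 3, -0.09 without control mouse 3, 0.01 in slide row 1 and -0.30 with processed signals, where the median of the 8 genes described was -0.25. The part of blood content in the globin difference was not tested.

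Vessel and tissue markers were mixed. Endothelial markers had a median of 0.05, with 6 of 10 higher, a median that was -0.022 without control mouse 4, 0.12 without control mouse 3 and -0.01 in slide row 1. *Cldn5*, a tight junction protein of brain vessels, lay at -0.57 (SE 0.08, adjusted p = 0.138 from limma). *Cldn5* passed in Cy5 alone, with a difference of -0.70 (adjusted p = 0.0467 from limma), but not in processed Cy5 alone, at -0.78 (adjusted p = 0.111 from limma), and its ratio differed by -0.11 with processed signals. *Slco1a4* and *Tek* lay at 0.36 and 0.26 in the ratio. The 4 pericyte markers had a median of 0.12 (0.073 without control mouse 4, 0.078 without BaP mouse 2, 0.26 with processed signals), with *Abcc9* at 0.34, *Rgs5* at 0.28 and *Kcnj8* at -0.04. With processed signals *Rgs5* lay at 0.86, *Kcnj8* at -0.46, *Tek* at 0.80 and *Kl*, a choroid plexus marker, at 0.07. Choroid plexus markers had higher values in 8 of 8 (median 0.81), with *Kcnj13* at 1.37, *Slc4a5* at 0.89 and *Kl* at 0.84, and groups that overlapped widely. That median was 0.33 without BaP mouse 3, 0.52 without control mouse 4 and 1.48 without BaP mouse 1, 0.16 in slide row 1 and 1.41 in row 2, and 0.36 with processed signals. *Kcnj13* ran from 0.75 to 2.47 without each mouse in turn. Their mean per mouse ran from 2.01 to 3.67 in control and from 1.502 to 4.69 in BaP mice. Neuron markers had a median of 0.09, with *Dsp* at 1.02, *Wfs1* at 0.38 and *Prox1* at 0.20. Their median was 0.027 without BaP mouse 1, 0.048 without BaP mouse 2, 0.15 without BaP mouse 4, -0.094 in slide row 2 and -0.007 with processed signals, and *Wfs1* ran from 0.23 to 0.62 without each mouse. Their mean per mouse was 3.66 to 3.79 in control and 3.71 to 4.11 in BaP mice.

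**Figure D5:**
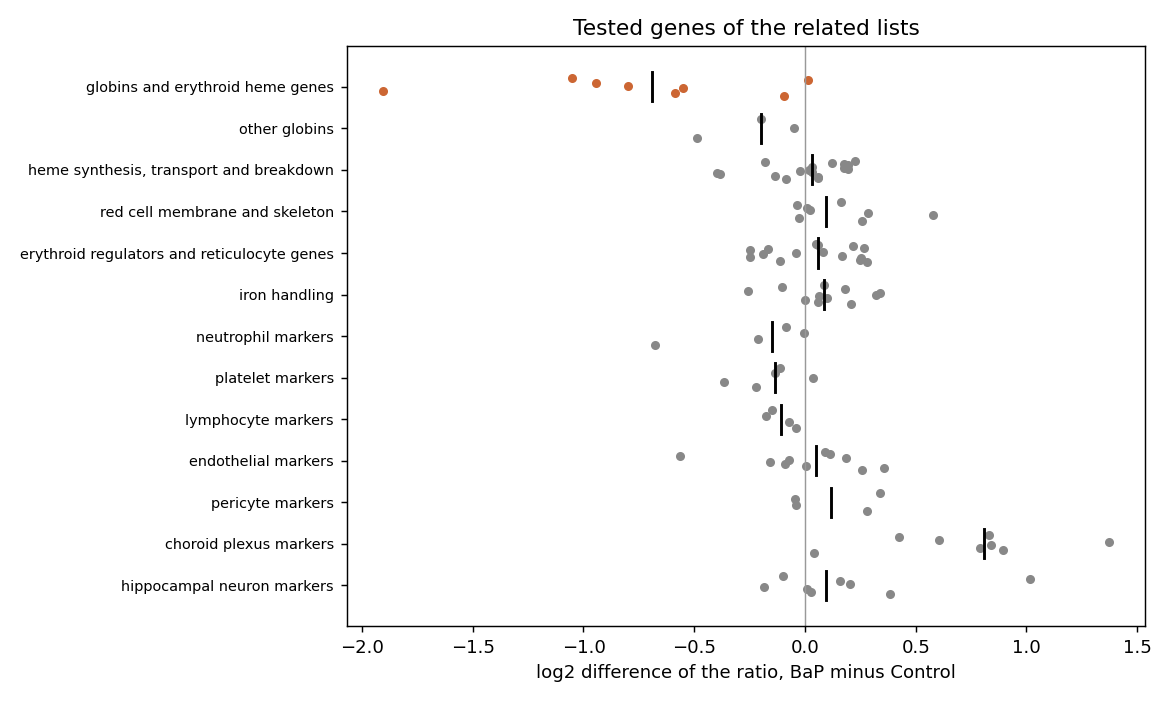
Log2 difference of the ratio, BaP minus Control (horizontal axis), for each tested gene of the 8 genes described (orange) and of the 12 related lists (grey). Each point is 1 gene and the black bar is the median of its list. The 8 genes have a median of -0.69, and the medians of the other lists run from -0.20 to 0.81.

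The genes whose ratio over the 8 arrays ran most like the mean of the 8 described were found among 14891 named genes. In falling order of Pearson r, from 0.98 to 0.95, they included *Septin1*, *Gm15772*, *H2ac11*, *H2ac22*, *H2ac20*, *Mkks*, *Usp29*, *Rnu1b6* and *Fbln2*. All of these had lower ratios in BaP-exposed mice, from -1.92 for *Gm15772* to -0.17 for *Septin1*, and the contrast between the groups is part of the pattern they were matched to. With group means removed, r ran from 0.45 to 0.76.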

How the data were processed

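The authors deposited Agilent Feature Extraction 11.0.1.1 intensities for every spot in both channels, processed signals and a log10 ratio, and a table of log2 ratios that the methods describe as LOWESS-normalized. In R 4.3.3 with limma 3.58.1, spot medians were background-corrected by normexp (offset 50), control spots dropped, outlier spots set to missing and ratios loess-normalized within each array, after which the spots of a probe were averaged. A probe was tested if its Cy5 signal was well above background on 4 or more of the 8 arrays. limma's lmFit and eBayes were used, p-values were adjusted by the Benjamini-Hochberg method, and the thresholds were an adjusted p of 0.05 with a fold of 1.5. limma stands in for the analysis of variance of the methods. Of 28685 probes with a RefSeq accession, 27235 were named through a GRCm38.p6 table. The array headers give an earlier build, so coordinates belong to RefSeq sequences only.

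The genes and lists were chosen with earlier results of these data known. Named are all 8 genes, the 3 largest differences and any call per list, and the 10 most similar genes, each by its brightest probe, apart from genes not reported here. Median Cy5 was 105 to 169 units over a background of 67 to 71, and control mouse 1 had 1483 outlier spots against 310 to 371 elsewhere. The fit was tested on simulated data. Figures used matplotlib. Alternatives covered the background correction, normalization, filter, single channels, the authors' log2 ratios, slide row, replicate block, label conflict and each mouse left out.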

Additional observations from a re-analysis of the deposited data

Results flagged for a closer look

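In groups of 4 mice, the gap of the highest or lowest mouse to its neighbor was compared with the whole range of the group, and 6 of 142 groups exceeded Dixon's critical share. About 1 group in 20 does so by chance, or 7.1 of 142. None of the 50 groups examined for the globins, *Alas2*, *Fech* and *Slc4a1* did. For *Gm15772* in control mice the share was 0.896, with mouse 2 at -0.68 and the others at 0.01 to 0.10. For *H2ac20* in control mice it was 0.834, with mouse 3 at -1.69 and the others at -1.63 to -1.61. For *Gypc* in BaP mice it was 0.844, with mouse 1 at -3.46 and the others at -2.74 to -2.61. For *Zfpm1* in BaP mice it was 0.913, with mouse 4 at -0.06 and the others at 0.65 to 0.72. For *Usp29* in BaP mice it was 0.882, with mouse 2 at 3.62 and the others at 3.78 to 3.80. For *Fbln2* in BaP mice it was 0.891, with mouse 4 at -3.77 and the others at -4.04 to -4.01.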

How the results depend on the processing

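The number of probes past the threshold was 3 in the fit as reported. It was 5 with no filter on dim probes, 7 with Cy5 alone, 5 with processed Cy5 alone, 0 with processed signals, 0 with either slide row alone (2 mice a group) and 0 with groups by source name, and 1 to 3 without each mouse in turn, with 1 left without control mouse 1, 3 or 4 or BaP mouse 2. Processed Cy5 and Cy3 signals alone were added after the data were seen. Of the list genes, 1 passed with Cy5 alone and 0 with processed Cy5 alone. The median difference of the 8 genes was -0.25 with processed signals, -0.22 with median centring, -1.30 with Cy5 alone, -1.45 with processed Cy5 alone, -0.074 with groups by source name and -0.78 to -0.64 without each mouse in turn. *Hbb-bs* minus the other globins was 0.22 with processed signals (reversed), -0.63 with Cy5 alone, -0.65 with processed Cy5 alone, -0.043 with groups by source name and -1.33 to -1.09 without each mouse. The median Cy3 difference of the 8 genes, -0.42 with normexp, was -0.98 with processed signals, -0.058 with groups by source name and -0.49 to -0.38 without each mouse. The replicate numbers share only a number, since same-numbered mice deviated together at r of -0.35 to 0.03, and a replicate block left 3 probes past the threshold and the median at -0.69. The causes were not tested.

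Of 36 named genes of the related lists, 12 changed sign or moved by over 1.5 times with processed signals and 20 without at least 1 of the mice. The signs of single values turned most often with groups by source name, in 24 of 54 cases outside the omission of single mice. These were *Hbb-b2* 0.037, *Alas2* 0.009, *Fech* -0.07, *Hbb-bh1* 0.061, *Ngb* 0.12, *Abcb10* -0.11, *Gypc* -0.34, *Tmod1* -0.039, *Epor* -0.035, *Hfe* -0.38, *Lcn2* 0.014, *Gp5* 0.33, *Cd3e* 0.01, *Cd79b* 0.038, *Cldn5* 0.054, *Slco1a4* -0.075, *Kcnj13* -1.20, *Kl* -0.58, *Slc4a5* -0.70, *Wfs1* -0.27, *Dsp* -0.33 and *Gm15772* 0.12, and in Cy3 *Fech* 0.079 and *Slc4a1* -0.029. Median centring gave *Hbb-bh1* 0.046, *Cygb* 0.095, *Ftl1* 0.016, *Lcn2* 0.063, *Cd3e* 0.12, *Cd3g* 0.026, *Cd79b* 0.19, *Septin1* 0.048 and *H2ac20* 0.046. Processed signals gave *Fech* -0.042, *Ngb* 0.095 and *Prox1* -0.05, and processed Cy5 alone gave *Fech* -0.027, *Hbb-bh1* 0.074, *Gp5* 0.009 and *Kcnj8* 0.12, with *Fech* 0.025 in processed Cy3. No background correction gave *Kcnj8* 0.006, and the mean of all probes gave *Camp* 0.023. Slide row 1 alone gave *Fech* -0.054, *Hbb-bh1* 0.011, *Gypc* -0.057, *Hfe* -0.037 and *Gp5* 0.20, with *Fech* 0.047 in Cy3. Slide row 2 alone gave *Tfrc* -0.023, *Ftl1* 0.11, *Camp* 0.027 and *Treml1* 0.19, with *Alas2* 0.14 in Cy3. Without each mouse in turn, *Fech* ran from -0.013 to 0.033, *Hbb-bh1* from -0.098 to 0.004, *Cd3g* from -0.31 to 0.045, *Cd79b* from -0.18 to 0.057 and *Kcnj8* from -0.10 to 0.02, and in Cy3 *Alas2* ran from -0.18 to 0.045 and *Fech* from -0.058 to 0.001. With 4 arrays a group, the precision of every value is limited, and for *Hbb-bs* and *Alas2* in Cy3 the signal was near background.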

Other observations

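Transthyretin (*Ttr*), a choroid plexus gene named after its values were seen, had a Cy3 value that differed between arrays of the same reference RNA. The *Ttr* spot gave 1330.5, 602, 1402 and 284.5 Cy3 units on the arrays of control mice 1 to 4, where Cy5 was 104971, 37026, 123138 and 13942.5 units. On the arrays of BaP mice 1 to 4 it gave 208, 3346, 2427 and 1521 Cy3 units, where Cy5 was 10409, 218680, 266449 and 139152 units. The array with the least Cy5 signal at this spot had the least Cy3 signal, and the groups overlapped in both channels. This is 1 probe, and nothing is read from it about others. Between the groups, the corrected Cy3 signal of the 8 choroid plexus markers differed by -0.04 for *Aqp1* up to 0.94 for *Clic6*, relative to the array median. What moved these Cy3 signals was not tested.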
